A study of Mus musculus with 8 samples.

Results

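The genes described here run the cell division cycle, from the decision to leave G1 through DNA replication to mitosis. They were chosen as a list of 47 gene symbols, and every probe of the array whose symbol is on the list was taken. By this rule 42 of the 47 genes were found, with 81 of the 25697 probes and among 18120 gene symbols on the array. Of the other 5, Cdt1 and Aurka stand in the table under the older symbols Ris2 and Stk6, with 1 probe each, and are given apart from the counts, while Aurkb, Mki67 and Cdk4 were not analysed here. Cdc2a is the older symbol of Cdk1 and is kept as the table has it. The members fall into 13 replication genes, 17 mitosis genes and 12 genes of G1 control.

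The study asked which genes change when the zinc finger transcription factor Bcl11b is overexpressed in striatal cells. STHdh cells, conditionally immortalized striatal progenitors of the mouse that are wild-type at the Huntingtin locus, were transfected either with a pcDNA3.1 plasmid carrying mouse Bcl11b or with the empty pcDNA3.1 plasmid (mock), and their RNA was taken on the second day after transfection. Each of the 4 Bcl11b-transfected and 4 mock-transfected sets of cells was hybridized to 1 Illumina MouseRef-8 v2 array. All 8 arrays therefore share 1 immortalized line, the vector and the transfection reagent, and the RNA comes from transfected and untransfected cells of a well together. In bulk RNA of this kind, fewer cells in a phase and less RNA per cell cannot be told apart.

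A cell that commits to divide phosphorylates the retinoblastoma protein through cyclin D and cyclin E kinases, which frees E2F factors to switch on the genes of DNA replication. Genes of mitosis follow later in the cycle, driven by B-Myb and Foxm1, and are shut off in resting cells through a promoter element called the cell cycle homology region. Most of these transcripts are therefore abundant in dividing cells and scarce in resting ones, as in mature striatal neurons.

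The promoters of the members differed by role in the motifs they hold. RefSeq promoter windows of GRCm38.p6, from 250 bases before to 50 bases after a transcription start, were at hand for 34 of the 42 members (37 windows). The letters TTTGAA of the cell cycle homology region were present, on either strand, in 57.1% of the 14 mitosis windows, in 7.69% of the 13 replication windows and in 10% of the 10 windows of G1 control genes. Of all 32851 windows, 17.9% held them. An E2F site, written TTTNGCGC, was present in 30.8% of the replication windows, 7.14% of the mitosis windows and 30% of the G1 control windows, against 1.38% of all windows. The CCAAT box, searched as CCAAT, was present in 69.2%, 85.7% and 50% of these windows in the same order, against 37.4% of all. Matches of different motifs overlapped in 1 place among the member windows. A match is a description of the letters, not a site shown to be bound. The 250 bases before the start are printed below for Mcm6, a helicase subunit with 3 E2F matches, for Cdc2a, a mitotic kinase gene with TTTGAA 2 times, and for Mad2l1, a mitosis gene that was lower with Bcl11b and whose window holds none of the motifs. Capitals mark the matches on either strand, so that a CCAAT box on the other strand reads ATTGG. In Mcm6, 2 of the 3 E2F matches lie on opposite strands and overlap, so they read as 1 marked stretch.
Mcm6, chr1:128359706-128359955, minus strand: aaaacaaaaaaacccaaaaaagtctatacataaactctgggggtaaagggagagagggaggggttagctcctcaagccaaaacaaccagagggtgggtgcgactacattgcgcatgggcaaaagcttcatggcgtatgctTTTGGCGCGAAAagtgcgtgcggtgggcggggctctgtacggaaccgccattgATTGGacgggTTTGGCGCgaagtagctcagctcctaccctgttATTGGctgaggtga
Cdc2a, chr10:69352913-69353162, minus strand: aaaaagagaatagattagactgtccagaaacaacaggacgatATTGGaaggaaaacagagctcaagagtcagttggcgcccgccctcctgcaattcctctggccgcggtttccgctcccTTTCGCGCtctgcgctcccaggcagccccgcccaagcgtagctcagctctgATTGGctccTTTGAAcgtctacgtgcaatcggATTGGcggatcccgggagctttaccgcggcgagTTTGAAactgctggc
Mad2l1, chr6:66534971-66535220, plus strand: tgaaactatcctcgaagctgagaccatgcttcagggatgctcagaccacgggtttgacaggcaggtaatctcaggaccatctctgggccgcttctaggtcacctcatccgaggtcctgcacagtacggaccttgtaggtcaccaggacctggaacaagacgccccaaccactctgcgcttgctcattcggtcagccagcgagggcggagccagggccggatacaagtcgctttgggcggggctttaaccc

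Each value below is the log2 of a probe's signal after quantile normalization of the 8 arrays, and a fold change is the Bcl11b mean minus the mock mean on that scale, fitted with limma over all 25697 probes. A probe is called detected on an array where its detection p-value was under 0.01. Markers of the labelled cell type were only partly detected on the arrays. The progenitor genes Nes, Sox2 and Vim were detected on all 8 arrays and Pax6 on none, whereas 0 of 5 markers of striatal projection neurons and 1 of 4 general neuronal markers (Map2) were detected. No marker of astrocytes, oligodendrocytes, microglia or endothelium was detected, and of 5 mesenchymal markers Col1a1 and Pdgfrb were. Of the detected markers Pdgfrb was the 1 past the second threshold given below, with a change of -0.49, and its part in the results was not tested. The only Bcl11b probe on the array was not detected on any array, so the level of the transfected gene is not seen. Before normalization the mock arrays were brighter, with median signals of 31.6 to 53.9 against 20.1 to 30.2 on the Bcl11b arrays.

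Cell cycle transcripts were widely expressed. A total of 38 of the 42 members (90.5%) had a probe detected on all 8 arrays, compared with 39.2% of all gene symbols, and 62 of the 81 member probes (76.5%) were detected on all 8, compared with 36.4% of all probes. All 13 replication genes and all 12 G1 control genes were among the 38, together with 13 of the 17 mitosis genes. The mitosis genes Bub1, a checkpoint kinase, Ccnb2 (cyclin B2) and Cenpe, a kinetochore motor, were at the floor of the scale on every array and have no fold change. Ube2c, which feeds ubiquitin to the anaphase-promoting complex, was detected on 1 mock array and 2 Bcl11b arrays.

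The array labelled Bcl11b replicate 4 stood apart from the others of its group. Across the 9360 probes detected on all 8 arrays, a single component held 65.8% of the variance that remained within the groups, and this array had its highest score. Among the 62 detected member probes, Bcl11b replicate 4 was the highest of the Bcl11b arrays for 41 and the lowest for 17, so that it lay at an end of its group for 93.5% of them, against 80.5% of all detected probes. Without this array the fold change of the brightest probe turned sign or moved by over 1.5 times in 27 of the 38 members detected on all arrays, by at most 0.25 on the log2 scale, and 8 of these signs changed. A change near 0 meets this rule through a small shift, as for Rbl1 (-0.002, and 0.005 without this array). The same count was not made for other arrays, so 27 is not shown to be particular to this one. The values without Bcl11b replicate 4 are given beside the members it moved in this way.

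No cell cycle gene passed the adjusted threshold. With limma p-values adjusted across the whole array by Benjamini-Hochberg and a limit of 0.10, 0 of the 81 member probes were called, against 0.981% of all probes. An unadjusted p-value under 0.05 was found for 6 member probes, and the share of all probes under that limit alone was not counted. At the second threshold, an unadjusted p-value under 0.05 with a change of at least 0.32 on the log2 scale (the fold limit), 2 member probes were higher in Bcl11b-transfected cells, against 3.2% of all probes, and 2 were lower, against 5.81% of all probes. The higher ones were probes of Rb1 and E2f2, and the lower ones were probes of Ccna2 and Mad2l1. The E2f2 probe, ILMN_1248842, was not detected on any array, and no fold change is given for it. Among probes detected on all 8 arrays, 3 of the 62 member probes were past this second threshold, against 14.3% of all such probes. The groups did not overlap for 2 member probes, of Rb1 and of the undetected E2f2 probe, against 5.83% of all probes. Without Bcl11b replicate 4 the counts were 5 higher and 3 lower, through the addition of Birc5 (2 probes), Tyms and Mcm5. The calls over all probes rose as well, so that 9.88% of the member probes were called in that setting against 10.8% of all probes.

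The precision of the arrays sets the size of change that could be seen. Taking the brightest probe of each of the 38 detected members, 31 differed by less than the fold limit between the groups, and the 95% interval of the change lay inside 1.5-fold for 17 and inside 2-fold for 33. The median half-width of these intervals was 0.43 on the log2 scale. Over all 62 detected member probes, 49 (79%) were within the fold limit, compared with 68.1% of all detected probes. Fold changes of the 38 members ran from -0.65 for Ccna2 to 0.67 for Mcm3, with 16 higher and 22 lower.

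**Figure D1:**
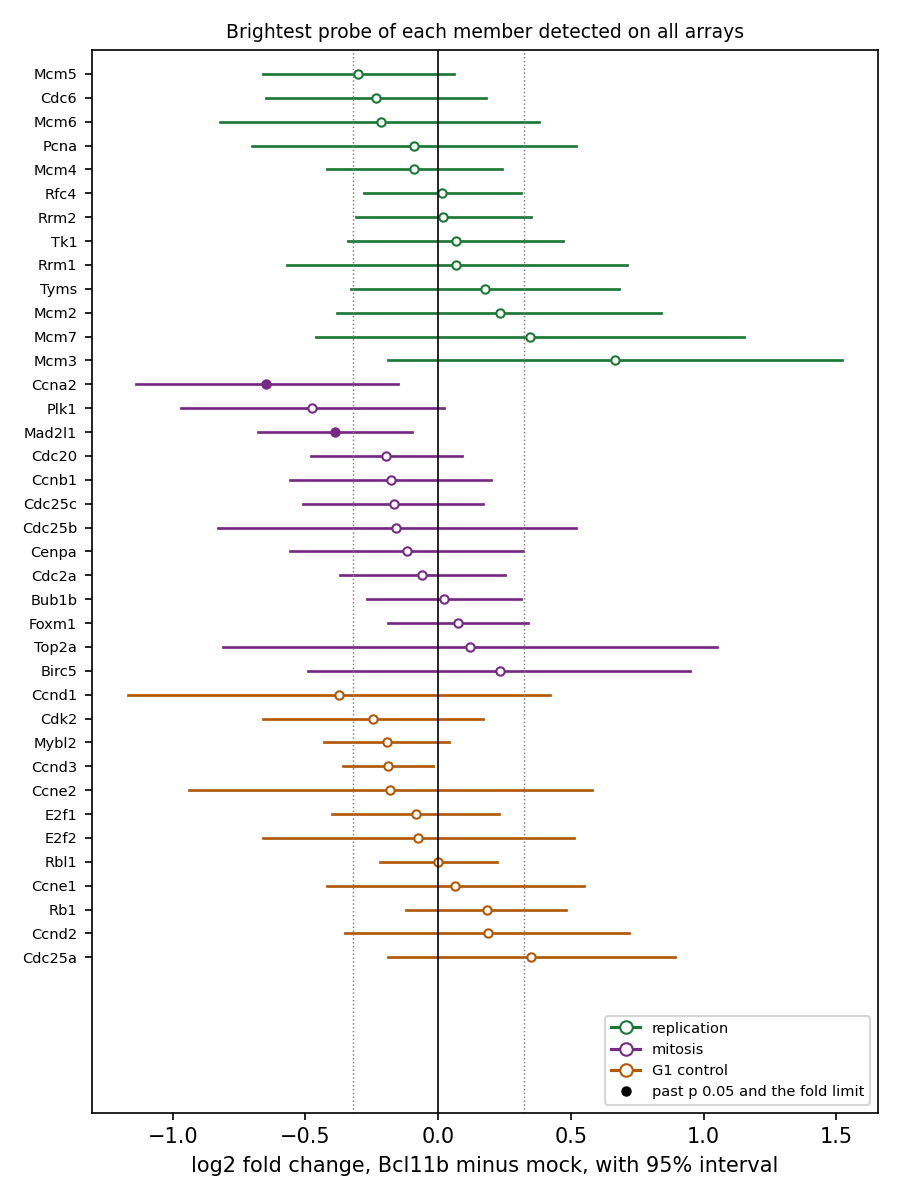
Log2 fold change (Bcl11b minus mock, 4 arrays each) of the brightest probe of each of the 38 members detected on all 8 arrays, with the 95% interval of the limma fit, coloured by role. Ccna2 and Mad2l1, drawn filled, are the only ones past p 0.05 and the fold limit, which is dotted.

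Replication genes did not move in 1 direction. With Bcl11b 8 of the 13 had a higher and 5 a lower signal, their median log2 fold change was 0.018, and the median of all detected probes was -0.026. The median was 0.083 without Bcl11b replicate 4, with 7 higher and 6 lower. None of their 29 probes had an unadjusted p-value under 0.05, a limit for which the share of all probes was not counted. With arrays scaled by their median signal in place of quantile normalization, the replication median was 0.28 and that of all detected probes was 0.067.

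The helicase that unwinds DNA is built from Mcm2 to Mcm7, and its subunits differed among themselves. Mcm3 had the largest positive change, 0.67 (95% interval -0.19 to 1.52, limma adjusted p = 0.635), with mock arrays 1 to 4 at 9.64, 10.78, 9.83 and 10.45 and Bcl11b arrays 1 to 4 at 10.39, 10.54, 10.91 and 11.52. The groups overlapped, and the highest value belonged to Bcl11b replicate 4, without which the fold change was 0.44. Mcm7 differed by 0.35 and Mcm2 by 0.23, and both intervals included 0. The same 2 genes differed by 0.18 and 0.092 with Bcl11b replicate 4 left out.

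Mcm5 had the lowest change of the replication genes. Its signal was 12.97, 13.09, 13.12 and 13.49 on mock arrays 1 to 4 and 12.65, 12.85, 12.80 and 13.17 on Bcl11b arrays 1 to 4. The means were 13.17 ± 0.22 and 12.87 ± 0.22 (SD, n = 4 each), a change of -0.30 (SE 0.15, limma adjusted p = 0.599). Bcl11b replicate 4 was the highest of its group, and without it the change was -0.40 with an unadjusted limma p-value of 0.0301, adjusted p = 0.333. With division by the array median the change was 0.011, so its direction rests on the scaling.

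Mcm4 and Mcm6, the other helicase subunits with high signals, differed by less than their spread. For Mcm4 (ILMN_2936427) the mock arrays read 13.39, 13.60, 13.53 and 13.78 and the Bcl11b arrays 13.30, 13.48, 13.34 and 13.81, a change of -0.091 (SE 0.14, limma adjusted p = 0.967). For Mcm6 (ILMN_2803399) the mock arrays read 12.94, 13.14, 12.67 and 13.53 and the Bcl11b arrays 12.58, 12.79, 12.66 and 13.38, a change of -0.22 (SE 0.25, limma adjusted p = 0.871). In both genes the fourth array of each group was the highest of its group, and the groups overlapped. The fold changes were -0.20 for Mcm4 and -0.39 for Mcm6 once Bcl11b replicate 4 was left out. The other detected Mcm6 probes differed by 0.036, -0.22 and -0.10. Under division by the array median, Mcm4 was 0.30 higher and Mcm6 0.076 higher.

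Helicase loading and the fork machinery were also close between the groups. Cdc6, which loads the helicase at origins, differed by -0.23, and its partner Cdt1 (probe labelled Ris2) by -0.17 (limma adjusted p = 0.802). Pcna, the sliding clamp of the polymerases, differed by -0.092, and Rfc4, a subunit of the clamp loader, by 0.015. The enzymes that make deoxynucleotides were likewise near 0, with changes of 0.068 for Rrm1 and 0.018 for Rrm2, the subunits of ribonucleotide reductase, 0.18 for Tyms (thymidylate synthase) and 0.066 for Tk1 (thymidine kinase). The 95% interval of each of these genes included 0. The second detected probe of Rfc4 differed by -0.38 and that of Tk1 by -0.002, so the probes of both genes differ in sign. Leaving out Bcl11b replicate 4 turned the signs of Pcna (0.13), Rrm1 (-0.085) and Rrm2 (-0.082), and gave 0.33 for Tyms, 0.17 for Tk1 and 0.083 for Rfc4.

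Among mitosis genes the size of a lean to lower signals depended on how the probes were counted. Of the 13 detected ones, 4 were higher and 9 were lower, with a median log2 fold change of -0.16. This count takes the brightest probe of each gene. Over all 22 detected mitosis probes 10 were higher and 12 lower, with a median of -0.034, close to the -0.026 of all detected probes. That count takes a gene as often as it has detected probes. Without Bcl11b replicate 4 the median over the brightest probes was -0.14. Division by the array median turned it to 0.095, so the direction of the group as a whole depends on the scaling.

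Ccna2 (cyclin A2), the cyclin that partners Cdk2 in S phase and Cdk1 at the entry into mitosis, had the largest decrease. Its probe read 7.91, 7.42, 7.77 and 8.02 on mock arrays 1 to 4 and 7.02, 7.18, 7.56 and 6.76 on Bcl11b arrays 1 to 4. Only mock replicate 2 and Bcl11b replicate 3 crossed over. The means were 7.78 ± 0.26 and 7.13 ± 0.34 (SD, n = 4 each), a 1.57-fold lower signal. The log2 fold change of -0.65 (SE 0.21) had an unadjusted limma p-value of 0.018 and an adjusted p of 0.338. Without Bcl11b replicate 4, its lowest array, the change was -0.53 (adjusted p = 0.376).

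Mad2l1 encodes Mad2, the checkpoint protein that holds Cdc20 inactive until every chromosome is attached to the spindle. It read 12.06, 11.69, 12.07 and 12.17 on mock arrays 1 to 4 and 11.75, 11.66, 11.52 and 11.50 on Bcl11b arrays 1 to 4. Mock replicate 2 was the array that overlapped the Bcl11b group. The means were 12 ± 0.21 and 11.61 ± 0.12 (SD, n = 4 each), a 1.31-fold lower signal. The log2 fold change of -0.39 (SE 0.12) had an unadjusted limma p-value of 0.0156 and an adjusted p of 0.321. Without mock replicate 2 the change was -0.50 and its adjusted p was 0.065, the only setting that leaves out an array in which a member passed the adjusted threshold. With division by the array median the change was -0.23, with an unadjusted limma p-value of 0.227, past no threshold.

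**Figure D2:**
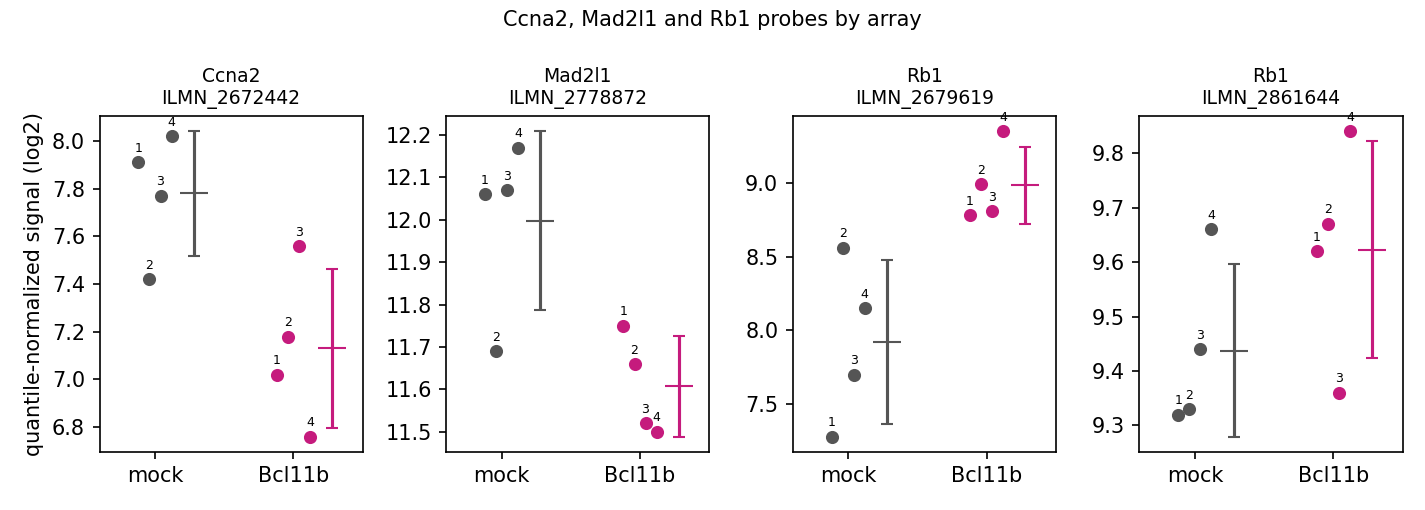
Quantile-normalized log2 signal of Ccna2, Mad2l1 and both Rb1 probes on each array, numbered by replicate, with the mean and SD of each group beside the points (n = 4); each panel has its own axis, which does not start at 0. Ccna2 and Mad2l1 overlap through 1 mock array each, the dimmer Rb1 probe ILMN_2679619 separates the groups (1.06 higher) and the brighter ILMN_2861644 does not (0.18 higher).

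The mitotic kinases and their activators had negative fold changes, without a call in the main fit. Plk1, a kinase of mitotic entry and spindle assembly, differed by -0.48 (95% interval -0.97 to 0.02, limma adjusted p = 0.505). Its mock arrays read 11.41, 11.01, 11.98 and 11.68 and its Bcl11b arrays 11.02, 11.00, 11.22 and 10.94. Aurka (probe labelled Stk6), the spindle pole kinase, differed by -0.27 (limma adjusted p = 0.499). Cdc25c, a phosphatase that activates Cdk1, differed by -0.17 on its brighter probe and by -0.28 on the other detected probe, ILMN_2637704 (unadjusted limma p-value of 0.044, adjusted p = 0.461), and Cdc25b differed by -0.16. Ccnb1 (cyclin B1) differed by -0.18 and -0.33 on its 2 probes. With Bcl11b replicate 4 left out, Plk1 stood at -0.44, Cdc25b at -0.33 and the brighter Ccnb1 probe at -0.31. Plk1 and the dimmer Ccnb1 probe were past the second threshold in some other settings. With another normalization, neqc, they differed by -0.47 and -0.33 (unadjusted limma p-values of 0.0404 and 0.0494). With division by the array median neither was called.

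The mitosis genes with the highest signals, Cdc2a, Cdc20 and Cenpa, had no call. Cdc2a, the kinase that drives mitosis, read 12.89, 13.36, 12.83 and 13.03 on the mock arrays and 12.94, 12.82, 12.99 and 13.11 on the Bcl11b arrays (ILMN_2657844, change -0.062, SE 0.13, limma adjusted p = 1). Cdc20, the activator of the anaphase-promoting complex, read 12.93, 12.71, 13.15 and 12.97 and then 12.78, 12.59, 12.66 and 12.95 (ILMN_2867899, change -0.20, SE 0.12, limma adjusted p = 0.679). For both genes the groups overlapped, and the change was positive under division by the array median, 0.24 and 0.095. The other 3 detected Cdc20 probes differed by 0.033, 0.18 and 0.43, opposite in sign to the brightest. Cdc2a stood at -0.11 and the brightest Cdc20 probe at -0.26 without Bcl11b replicate 4. Cenpa, the histone variant of the centromere, read 13.64, 13.17, 13.61 and 13.12 and then 13.44, 13.38, 13.36 and 12.88 (change -0.12, SE 0.18, limma adjusted p = 0.972). The lowest value was Bcl11b replicate 4, and without that array its change was 0.010.

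Some mitosis genes were on the higher side. Birc5 (survivin), a member of the chromosomal passenger complex, had 3 detected probes with changes of 0.23, 0.35 and 0.58 (limma adjusted p from 0.572 to 0.915). The probe with the largest change, ILMN_2603699, read 10.43, 10.38, 10.55 and 9.70 on mock arrays 1 to 4 and 11.01, 10.95, 11.21 and 10.21 on Bcl11b arrays 1 to 4. On all 3 probes the fourth array of each group was the lowest of its group. Without Bcl11b replicate 4 the change of this probe was 0.79 and that of ILMN_2681241 was 0.66, with adjusted p-values of 0.262 and 0.274. Top2a, the topoisomerase that untangles sister chromatids, differed by 0.12, Foxm1, a transcription factor of mitosis genes, by 0.075, and Bub1b, a checkpoint kinase relative, by 0.021. These stood at -0.071, 0.020 and -0.055 without Bcl11b replicate 4, and the brightest Birc5 probe at 0.48.

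G1 control genes had a median log2 fold change of -0.081, with 4 higher and 8 lower of 12. Division by the array median gave a median of 0.053, and leaving out Bcl11b replicate 4 gave -0.14. Of their 24 probes, 3 had an unadjusted p-value under 0.05, those of Rb1 and Ccnd3 and the undetected one of E2f2. How many of all probes were under that limit alone was not counted.

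Rb1, the retinoblastoma protein that restrains E2F, was read by 2 probes that differed. The dimmer probe, ILMN_2679619, read 7.28, 8.56, 7.70 and 8.15 on mock arrays 1 to 4 and 8.78, 8.99, 8.81 and 9.35 on Bcl11b arrays 1 to 4. All Bcl11b arrays were above all mock arrays. The means were 7.92 ± 0.55 and 8.98 ± 0.26 (SD, n = 4 each), a 2.08-fold higher signal. The log2 fold change of 1.06 (SE 0.30) had an unadjusted limma p-value of 0.0105 and an adjusted p of 0.276. The brighter probe, ILMN_2861644, read 9.32, 9.33, 9.44 and 9.66 and then 9.62, 9.67, 9.36 and 9.84, and its groups overlapped (change 0.18, SE 0.12, limma adjusted p = 0.736). A call for Rb1 thus rests on 1 of its 2 probes. The dimmer probe stood at 0.94 and the brighter at 0.11 without Bcl11b replicate 4. Without normalization between arrays the dimmer probe differed by 0.35, with an unadjusted limma p-value of 0.294. Rbl1, the p107 relative of Rb1, differed by -0.002, and by 0.005 without Bcl11b replicate 4.

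The D-type cyclins carry growth signals to the retinoblastoma protein. Ccnd1 (ILMN_1221503) read 14.42, 13.26, 13.70 and 13.21 on the mock arrays and 13.45, 13.46, 13.50 and 12.70 on the Bcl11b arrays, a change of -0.37 (SE 0.33, limma adjusted p = 0.802). Ccnd2 read 12.17, 12.75, 12.17 and 12.09 and then 12.32, 12.12, 12.59 and 12.90, a change of 0.19 (SE 0.22, limma adjusted p = 0.889). Both values moved with single arrays. Ccnd1 stood at -0.13 without mock replicate 1 and at -0.17 without Bcl11b replicate 4, and Ccnd2 at 0.34 without mock replicate 2 and at 0.045 without Bcl11b replicate 4. Ccnd3 had the tightest replicates of the D-type cyclins, 11.80, 11.85, 11.69 and 11.88 against 11.66, 11.55, 11.49 and 11.76, and differed by -0.19 (unadjusted limma p-value of 0.0359, adjusted p = 0.43), under the fold limit.

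Of the cyclin E branch, Cdk2 (ILMN_1233064) read 12.69, 13.05, 12.88 and 13.25 on the mock arrays and 12.67, 12.67, 12.46 and 13.09 on the Bcl11b arrays, a change of -0.25 (SE 0.17, limma adjusted p = 0.752). The other 3 Cdk2 probes differed by -0.048, 0.062 and 0.18, so the probes share no direction. Without Bcl11b replicate 4 the brightest probe stood at -0.37 and the others at -0.23, -0.21 and -0.029. Ccne1 and Ccne2, the E-type cyclins, differed by 0.063 and -0.18, and Cdc25a, the phosphatase that activates Cdk2, by 0.35 (95% interval -0.19 to 0.89). Their values were -0.074, -0.42 and 0.23 when Bcl11b replicate 4 was left out. The factors E2f1 and E2f2 differed by -0.085 and -0.077, and Mybl2 (B-Myb) by -0.19 on its brightest probe and 0.10 on the next, and without Bcl11b replicate 4 E2f2 stood at -0.21. The dimmest Mybl2 probe, ILMN_2637886, detected on 3 mock and 4 Bcl11b arrays, differed by 0.75 (95% interval -0.16 to 1.66).

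The arrays of a group differed among themselves in these genes. The median within-group SD was 0.315 for the detected member probes and 0.259 for all detected probes. Bcl11b replicate 4 was above the other Bcl11b arrays in most G1 control and helicase genes. Members were split by the sign with which they followed the component that this array leads. Of the G1 control probes 18 followed it and 2 went against it, of the replication probes 13 and 7, and of the mitosis probes 13 and 9. The share of all detected probes that followed it was not counted, and genes with several probes enter more than once. All 9 detected probes of Mcm2 to Mcm7 followed it, with Bcl11b replicate 4 differing from the mean of the other Bcl11b arrays by -0.05 to 0.90. The 7 detected probes of Pcna, Rfc4, Tk1 and Tyms went the other way, by -0.89 to -0.27, although these genes are also switched on for replication. In mitosis, Birc5 (-1.25 to -0.84), Cenpa (-0.51) and Ccna2 (-0.49) were below, and Cdc25b (0.68), Top2a (0.77) and Ccnb1 (0.54 and 0.17) were above. These are descriptions of 1 array, chosen because it stood apart, and what set it apart was not tested.

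**Figure D3:**
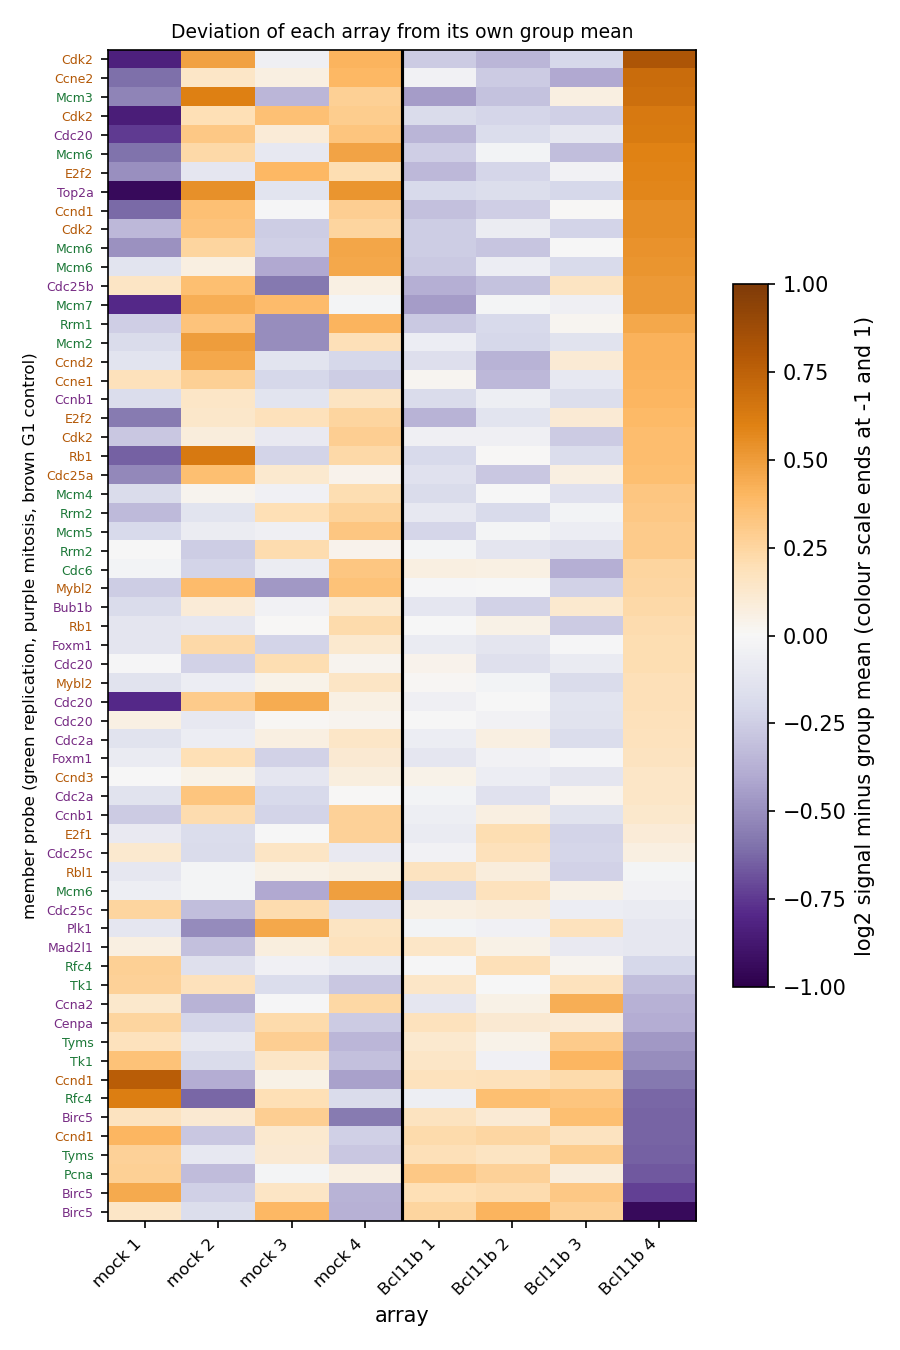
Log2 signal of each of the 62 detected member probes (rows) on each array (columns) minus the mean of that array's group, ordered by the value on Bcl11b replicate 4; gene names are green for replication, purple for mitosis and brown for G1 control. Bcl11b replicate 4 has the strongest colours of its group at both ends, with the helicase and Cdk2 probes high and the Birc5, Pcna and Tyms probes low.

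Probes of a gene mostly followed the arrays together. Of the 16 members with more than 1 probe detected on all 8 arrays, 15 had all probes on the same side of this pattern, and 10 had fold changes of 1 sign. The exception in the pattern was Ccnd1. On ILMN_1221503 and ILMN_2601471 Bcl11b replicate 4 was 0.77 and 0.85 below the mean of the other Bcl11b arrays, whereas on ILMN_2669793 it was 0.73 above. The mock arrays showed the same contrast, since mock replicate 1 was the highest mock array on the first probes (14.42 and 13.52) and the lowest on the third (11.78). The Bcl11b-minus-mock changes of these probes, -0.37, -0.15 and -0.12, did not differ in sign.

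**Figure D4:**
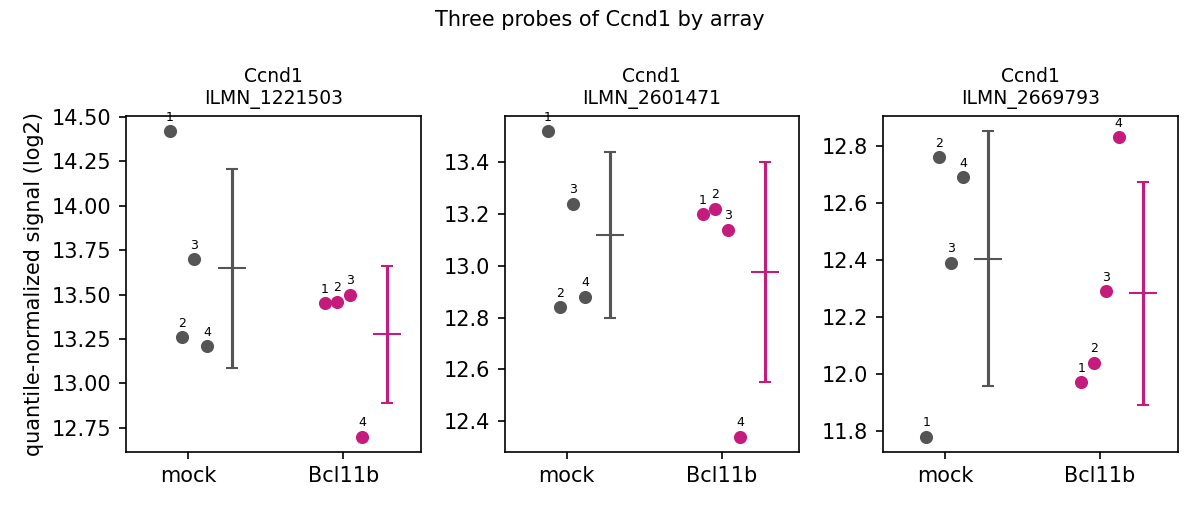
Quantile-normalized log2 signal of the 3 Ccnd1 probes on each array, numbered by replicate, with the mean and SD of each group (n = 4); each panel has its own axis, which does not start at 0. Bcl11b replicate 4 is the lowest Bcl11b array on the left and middle probes (12.70 and 12.34) and the highest on the right one (12.83), and mock replicate 1 is the reverse.

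A longer list of cell cycle genes was read the same way. Of 125 further replication, mitosis and G1 control genes listed for their function, 113 were on the array and 87 were detected on all 8 arrays. Past p 0.05 and the fold limit 2 (1.77% of the 113) were higher and 10 (8.85%) were lower, against 3.2% and 5.81% of all probes. Of the lower ones 3 were not detected on any array, and 0 genes passed the adjusted threshold. The further genes were detected more often than the array as a whole, so the share over all probes is an unlike comparison. With the fit kept to probes detected on at least 4 arrays, 2 of 92 further genes were higher and 8 lower. These were 2.17% and 8.7%, against 5.45% and 10.9% of all such probes, so the further genes held no excess of lower calls there. The medians were -0.084 for other replication genes, -0.16 for other mitosis genes and -0.045 for other G1 control genes. Leaving out Bcl11b replicate 4 gave 5 higher and 13 lower (4.42% and 11.5%, against 4.61% and 6.18% of all probes), and division by the array median gave 5 and 5 (4.42% each, against 4.83% and 4.35%).

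The 3 detected genes with the smallest p-values were mitosis genes. Ttk, the kinase that starts the spindle checkpoint, read 8.21, 7.84, 7.75 and 8.19 on the mock arrays and 7.45, 7.58, 7.11 and 7.34 on the Bcl11b arrays, with no overlap (change -0.63, unadjusted limma p-value of 0.00508, adjusted p = 0.206). Cdca2, which recruits a phosphatase to chromatin as cells leave mitosis, differed by -0.42 and Tpx2, a spindle assembly factor, by -0.62, and neither gene's groups overlapped (limma adjusted p = 0.224 and 0.264). Fzr1 (Cdh1), an activator of the anaphase-promoting complex, differed by -0.33, and Espl1 (separase), which cuts cohesin at anaphase, by 0.43. Of the replication genes, Lig1, the ligase that seals lagging strand fragments, differed by -0.57 with no overlap (limma adjusted p = 0.314). Rpa2, a single-strand binding subunit, differed by 0.28, under the fold limit.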

How the data were processed

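RNA from 4 Bcl11b-transfected and 4 mock-transfected sets of STHdh cells was read on Illumina MouseRef-8 v2 arrays. The authors deposited 1 background-subtracted intensity per probe from GenomeStudio, not normalized between arrays, and a detection p-value per probe, also deposited by the authors. No intensity was identical between arrays for all probes. Groups and replicate numbers came from the sample titles. Quantile normalization was applied, values under 1 were raised to 1, and log2 values were fitted with limma 3.58.1 (lmFit and eBayes, R 4.3.3) over all 25697 probes without covariates, with Benjamini-Hochberg adjustment. The thresholds followed the study's methods (adjusted p-value of 0.10, or p-value of 0.05 with a change of 0.32 on the log2 scale). At the adjusted limit the fit used here called 252 of all probes, fewer than the genes the study reported at that FDR. The reason for this difference was not tested. The steps were tested on simulated data in which each probe varied independently, so that test does not cover variation shared between probes. A gene with several probes is represented by its brightest one. Full values are given for detected members past a threshold and for the 3 brightest members of each role, and the 8 detected genes with the smallest p-values were taken from the longer list, 1 of which is not reported here. The members and lists were chosen with earlier results of these data known. Replicates are separate sets of transfected cells of 1 line, their number limits the precision, and p-values measure the spread between these sets. Alternatives were other normalizations, an offset of 16, detection filters, a replicate block, robust limma-trend, arrayWeights, 1 probe per symbol and leaving out each array. Promoter sequences are from RefSeq (GRCm38.p6), matched by symbol.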

Additional observations from a re-analysis of the deposited data

Results flagged for a closer look

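In 6 of the 78 groups of 4 arrays examined (the brightest probe of each of 38 members and the dimmer Rb1 probe) 1 array lay far from the other 3 by Dixon's criterion at 95%, where chance alone gives about 1 in 20 groups, or 3.9. Bcl11b replicate 4 was the array in 4 of them. Birc5 (ILMN_2632712) read 11.39 there against 12.32 to 12.44 on the other Bcl11b arrays, Ccnd1 (ILMN_1221503) 12.70 against 13.45 to 13.50, Cenpa 12.88 against 13.36 to 13.44, and Top2a 12.62 against 11.83 to 11.87. Ccnd2 read 12.75 on mock replicate 2 against 12.09 to 12.17 on the other mock arrays, and E2f2 (ILMN_2673776) read 8.54 on mock replicate 1 against 9.25 to 9.36. What set these arrays apart was not tested.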

How the results depend on the processing

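Over 18 settings, 190 of 215 values of the 12 named member probes kept their direction and their side of p 0.05, 4 went above p 0.05, 9 went below it (6 of these past the fold limit too) and 12 changed sign. Scaling mattered most. With division by the array median the medians of replication, mitosis and G1 control were 0.28, 0.095 and 0.053 (all detected probes 0.067), 1 member was lower, 5 further genes were higher and 5 lower, Mad2l1 differed by -0.23, and signs turned for Ccnd1 (0.14), Cdk2 (0.025), Cdc20 (0.095), Cdc2a (0.24), Cenpa (0.29), Mcm4 (0.30), Mcm5 (0.011) and Mcm6 (0.076). With no normalization the medians were -0.47, -0.66 and -0.70 (all detected probes -0.68), and Ccnd2 turned to -0.35. In that setting 0 member probes were higher and 25 lower (30.9%, against 26.5% of all probes, detected or not). Of the further genes 0 were higher and 65 lower (57.5%, against the same 26.5%). The mock arrays were the brighter ones before normalization. With neqc 1 member probe was higher (1.23%, against 3.08% of all probes) and 4 lower (4.94%, against 5.84%). With detection under 0.05 on 4 arrays 1 was higher (1.39%, against 5.49%), and with 1 probe per symbol 0 were (against 3.1%). arrayWeights gave 7 member probes lower (8.64%, against 7.59% of all probes), among them the Cdc25c probe ILMN_2733046, not detected on any array, and Cenpa at 0.015. It gave 5 further genes higher and 15 lower (4.42% and 13.3%, against 5.81% and 7.59% of all probes). The replicate numbers were not taken to pair the samples, since 1 of the 4 correlations of same-numbered deviations was negative (0.68, -0.63, 0.18 and 0.70) and 4 of 8 arrays correlated best with their own number. With the replicate block 1 member probe passed the adjusted threshold (Birc5 ILMN_2603699, limma adjusted p = 0.0903). In that setting 5 member probes were higher (6.17%, against 3.64% of all probes) and 1 lower (1.23%, against 4.91%). Ccna2 and Mad2l1 lost their calls there, at unadjusted limma p-values of 0.0652 and 0.0542, and Mcm5, under the fold limit, had one of 0.00028. Leaving out each array in turn gave 0 to 1 member probes past the adjusted threshold, 2 to 5 higher and 2 to 4 lower, and 1 to 5 further genes higher and 6 to 13 lower. The share called in these settings ran from 4.94% to 9.88% of member probes and from 6.19% to 15.9% of further genes. That of all probes ran from 6.35% to 11.9%. Cdc2a ranged from -0.13 to 0.048, positive without mock replicate 2, and Cenpa from -0.22 to 0.010, positive without Bcl11b replicate 4. Ccna2, Mad2l1 and the called Rb1 probe kept p under 0.05 each time. The causes were not tested. With 4 arrays a group, a change smaller than the median half-width of 0.43 (log2) may go undetected, and undetected probes bear no fold change.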
